A study of Caenorhabditis elegans with 6 samples.

Results

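Nuclear receptors are transcription factors that carry a zinc finger DNA-binding domain and, in most cases, a domain that binds small lipophilic ligands such as sterols and fatty acids. In the nematode Caenorhabditis elegans the family is unusually large, and most of its members descend from an ancestor related to the vertebrate receptor HNF4. A few members drive molting. Others are known from work on fat storage, diet, detoxification and infection, and many have no assigned role. The genes described here are those with an nhr number, without nhr-23, nhr-25, nhr-41, nhr-67, nhr-85 and nhr-91, which were set aside as receptors of the molting set. The rule used names and no measured value: it took probe sets with a single gene symbol of that form, and 248 of the 17118 genes named on the array were such receptors. Each gene was represented by its brightest probe set. Of the 248, 148 had a mean over the 6 arrays above 5.73 on the log2 scale, the highest value of any probe set for Bacillus subtilis control transcripts, which served as a guide to background. The other 100 lay at or below it.

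Expression was measured with Affymetrix arrays in whole hermaphrodite larvae of the wild-type strain N2, variety Bristol, fed the bacterial strain DA837 at 20 °C. Active L3 larvae were picked 32 hours after arrested hatchlings were fed, and larvae in L3 lethargus, the phase around the molt in which they neither move nor feed, at 37 hours. Each stage had 3 arrays, each from a pool of 200 animals, and the number of arrays limits the precision of every difference. Both stages share strain and food, whereas age, molt phase and behaviour changed together and cannot be told apart. In whole animals, fewer cells of a type and less RNA per cell cannot be told apart either.

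Median log2 values per array ran from 7.09 to 7.19. Markers of the intestine, where many of these receptors act, had a mean log2 level between 10.63 and 10.80 on every array, with 6 of 6 genes above the control range and 0 called between stages. Neuronal, body wall muscle and germline markers had mean levels that differed by -0.07, -0.00 and 0.04 between stages, lethargus minus L3. Epidermal markers had means of 9.74, 9.38 and 9.42 in L3 and 9.18, 9.27 and 9.36 in lethargus (two-sided exact permutation test, p = 0.1, the lowest that 3 against 3 allows). Of the 4, 0 were called: dpy-7 (-1.12) and lin-26 (-0.72) had negative and elt-1 (0.45) and elt-3 (0.41) positive differences. Less RNA per pool was recovered on average in lethargus, per the labels. The part of either in the results was not tested. L3 replicate 3 differed from its stage. Its mean level of 4 sperm genes was 7.23, where L3 replicates 1 and 2 had 5.53 and 5.74 and the lethargus arrays had 5.92, 6.68 and 6.21, so receptors whose call or direction rests on it are given with and without it.

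Few of these receptors passed the test between stages, and those that did were higher in lethargus. Of the 148 above the control range, 3 rose (nhr-112, nhr-150 and nhr-171) and 0 fell by limma at an adjusted p of 0.05 or less over all 22548 probe sets. nhr-150 and nhr-171 had L3 means within the control range and passed the filter through lethargus, so their direction was fixed in advance. Over all probe sets 0.967% were called, 0.754% higher and 0.213% lower. Among the 10683 genes above the control range 1.54% were called, 1.17% higher and 0.365% lower. The 3 are 2.03% of 148, near that background. At an unadjusted p under 0.05, 28 receptors (18.9%) were higher and 2 (1.35%) lower, against 7.38% and 6.74% of genes above the control range. Of the 100 receptors at or below the control range, 0 were called, with 4 higher and 3 lower at an unadjusted p under 0.05.

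nhr-150 had too little signal in L3 for its rise to be more than bounded. Its log2 values were 4.92, 5.40 and 5.20 in L3 and 6.63, 6.50 and 7.38 in lethargus. The stages did not overlap, and its L3 values all lay within the control range. From 5.17 ± 0.25 (SD, n = 3) to 6.84 ± 0.48 (n = 3), the log2 difference was 1.67 (SE 0.25, adjusted p = 0.0353 by limma). With each L3 array set to its brightest control or to the receptor's own value, whichever was higher, the rise was at least 2.54-fold. This bound rests on each array's own controls and on the lethargus mean, and leaves out the error of that mean.

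nhr-171 followed the same form. Its log2 values were 5.59, 4.97 and 5.49 in L3 and 6.61, 6.65 and 6.79 in lethargus. The lethargus arrays were close together and all above the L3 arrays, which lay within the control range. The log2 difference was 1.33 (SE 0.18, adjusted p = 0.0236 by limma), and the rise, measured in the same way, was at least 2.09-fold. nhr-172, which lies next to nhr-171 in the RefSeq gene order, had 7.25, 7.42 and 8.04 in L3 and 7.85, 8.51 and 8.17 in lethargus, with a log2 difference of 0.61 that was not called (SE 0.25, adjusted p = 0.449 by limma). Its groups overlapped through L3 replicate 3, without which the difference was 0.84.

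nhr-112 lay above the control range on all 6 arrays. Its log2 values were 6.57, 6.61 and 6.78 in L3 and 7.35, 7.38 and 7.42 in lethargus, so the groups were tight and apart. It rose by 0.73 (SE 0.12, adjusted p = 0.0444 by limma), from 6.65 ± 0.11 to 7.38 ± 0.04 (SD, n = 3 each), a 1.66-fold rise. A second, dimmer probe set of nhr-112, marked as able to match related genes, had 0.76 with a wider error (SE 0.23, adjusted p = 0.249).

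Each of these 3 calls ended without some arrays other than L3 replicate 3, though its difference stayed positive. For nhr-150 and nhr-171 that direction was fixed by the filter. With an array left out, the log2 difference ran from 0.69 to 0.79 for nhr-112 and from 1.39 to 1.84 for nhr-150. For nhr-171 it ran from 1.14 to 1.45. Without L3 replicate 3 all 3 stayed called, with adjusted p-values of 0.0206 for nhr-112, 0.0169 for nhr-150 and 0.00938 for nhr-171. Without any one of the other 5 arrays the calls of nhr-112 (adjusted p 0.139 to 0.228) and nhr-150 (0.0510 to 0.139) ended. That of nhr-171 ended without L3 replicate 1 or any lethargus array (0.0525 to 0.112) and held without L3 replicate 2 (0.0458). Leaving out any of those 5 arrays lowered calls over all probe sets as well. They went from 170 higher and 48 lower to between 75 and 90 higher and 0 or 1 lower. The cause of the lost calls was not tested. The call of nhr-112 also ended with a variance trend and robust fit (0.0788) and with the mean of its probe sets (0.0934).

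**Figure D1:**
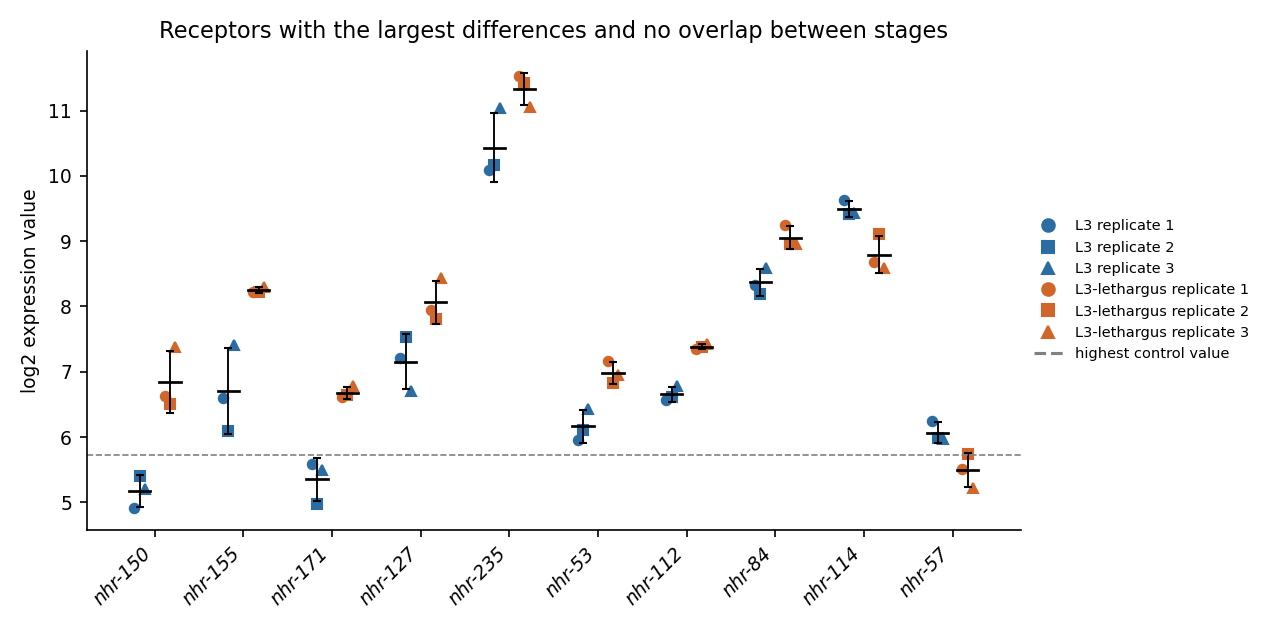
Log2 expression value (y axis) of the 8 receptors with the largest positive differences and the 2 with negative differences whose arrays did not overlap between stages. Points are arrays, bars the mean and SD of 3 arrays, and the dashed line the highest control value of 5.73. The L3 arrays of nhr-150 and nhr-171 lie below that line, and in nhr-155, nhr-235, nhr-53 and nhr-84 L3 replicate 3 is the highest L3 array.

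A further 5 receptors had large positive differences with no overlap between stages and did not pass the test. nhr-155 had log2 values of 6.60, 6.10 and 7.41 in L3 and 8.22, 8.23 and 8.30 in lethargus. The lethargus arrays were nearly equal and the L3 arrays spread widely, with L3 replicate 3 nearest to lethargus. The log2 difference was 1.55 (SE 0.30, adjusted p = 0.0806 by limma), and without L3 replicate 3 it was 1.90 with an adjusted p of 0.00187. Leaving out that array raised calls over all probe sets as well, from 170 higher and 48 lower to 573 and 563. nhr-53, whose probe set is marked as able to match related genes, had 5.95, 6.11 and 6.43 in L3 and 7.16, 6.83 and 6.95 in lethargus, a difference of 0.82 (SE 0.17, adjusted p = 0.0913), and nhr-84 had 8.33, 8.19 and 8.59 against 9.25, 8.96 and 8.96, a difference of 0.69 (SE 0.16, adjusted p = 0.120). In both, L3 replicate 3 was the L3 array nearest to lethargus, and without it their adjusted p-values were 0.0181 and 0.0360. nhr-127 had 7.22, 7.54 and 6.71 in L3 and 7.95, 7.81 and 8.43 in lethargus, with a difference of 0.91 (adjusted p = 0.201). Here L3 replicate 3 was the lowest array, not the one nearest to lethargus. nhr-102, the neighbour of nhr-84, had values of 8.02, 8.16 and 8.32 in L3 and 8.52, 8.80 and 8.93 in lethargus, also without overlap (difference 0.58, adjusted p = 0.176).

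nhr-235, the receptor with the brightest probe set, also had L3 replicate 3 close to lethargus. Its log2 values were 10.08, 10.17 and 11.04 in L3 and 11.52, 11.43 and 11.05 in lethargus. L3 replicate 3 lay just under the lowest lethargus array. The difference was 0.90 (SE 0.27, adjusted p = 0.249 by limma), and without L3 replicate 3 it was 1.21 with an adjusted p of 0.0106. nhr-90, also among the 5 brightest, had 9.41, 9.66 and 10.18 in L3 and 9.90, 9.96 and 10.08 in lethargus. Here L3 replicate 3 was above all lethargus arrays, and the difference of 0.23 (adjusted p = 0.856) was 0.45 without it. The neighbour of nhr-235, nhr-234, singled out after its values were seen, had 7.28, 7.71 and 9.94 in L3 and 8.32, 9.12 and 8.81 in lethargus. L3 replicate 3 was the highest of the 6 arrays, and the range of 2.66 between arrays was the widest of the 148 receptors. The arrays fell in the same order for nhr-234 as for the mean of the 4 sperm genes, whose part in these values was not tested. With all arrays the difference was 0.44 (adjusted p = 0.935), and without L3 replicate 3 it was 1.26 and called.

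Beyond single genes, most receptors had a small positive difference. Of the 148, 115 (77.7%) were higher on average in lethargus, against 52.3% of all genes above the control range and 53.6% of all probe sets. The median log2 difference was 0.15 (0.10 without L3 replicate 1 and up to 0.19 without another array), against 0.01 over those genes, and the middle part of the receptors, from the lower to the upper quartile, ran from 0.02 to 0.28. The differences are small beside the error of a single gene: the median SE was 0.16, and 132 of the 148 lay within 0.5 of zero. The arrays of the 2 stages were fully apart in 36 receptors (24.3%), against 17.8% of all genes above the control range and 14.4% of all probe sets. In 34 of them (23%) lethargus was the higher stage, and in 2 (1.35%), nhr-114 and nhr-57, the lower one, against 9.62% and 8.13% of genes above the control range and 7.81% and 6.57% of probe sets. nhr-150, nhr-171 and nhr-57 had 1 stage within the control range, which fixes their direction. Over the 144 receptors with both stage means above it, 32 were higher without overlap and 1, nhr-114, lower, and 78.5% had a positive difference, with a median of 0.15. This is a count over genes measured on the same 6 arrays, so receptors that vary together between arrays do not add independent evidence, and no test of the list was made.

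**Figure D2:**
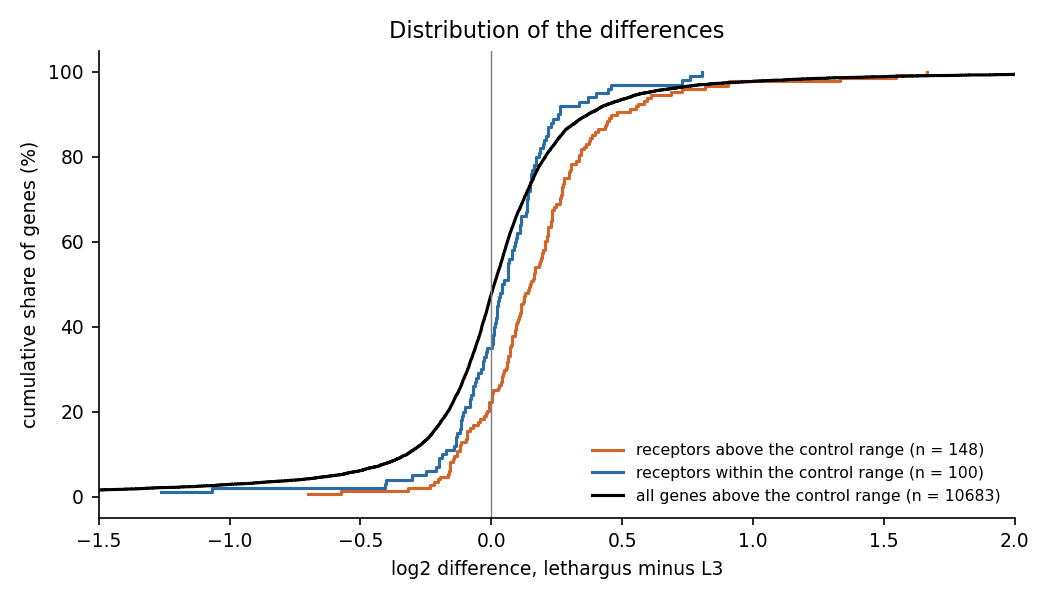
Cumulative share of genes (y axis, %) against the log2 difference, lethargus minus L3 (x axis), for 148 receptors above the control range, 100 within it and 10683 genes above it. The curve of the receptors above the range lies to the right of that of all genes over most of its length, with medians of 0.15 and 0.01, and the curves meet at large positive differences.

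Positive differences were the majority at every signal level. In receptors with a mean log2 level up to 7, 19 of 24 were positive, between 7 and 9 it was 73 of 95, and above 9 it was 23 of 29. Those 24 include nhr-150 and nhr-171, whose positive sign was fixed by the filter, and nhr-57 and nhr-149, whose negative sign was. Among all genes of those levels 54.7%, 56.3% and 48.5% were positive. Receptors with a probe set marked as able to match related genes were positive in 20 of 24 cases and those with unmarked probe sets in 95 of 124. Within the control range, 65 of 100 receptors were positive, with a median of 0.05. With the values of each array shifted to a common median 75% of the receptors were positive, and with a second quantile normalization 75.7%. Without any one array the share was 72.3% to 77.0%, lowest without L3 replicate 1.

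Second probe sets had fewer positive differences, though the gap was not tested. Of the 24 receptors that had a dimmer probe set also above the control range, 21 were positive on the brightest one, with a median of 0.25. Their 25 dimmer probe sets were positive in 15 cases, with a median of 0.16. For 9 of the 27 receptors above the control range with several probe sets, not all probe sets had the same sign, among them nhr-49, nhr-76, nhr-1, nhr-109 and nhr-88. The brightest probe set of nhr-1 had 0.37 and the other -0.06, and those of nhr-109 had 0.36 and -0.03.

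By array, L3 replicate 3 lay between the stages. As a deviation from each receptor's median over the arrays, the 148 receptors had a median of -0.14 on L3 replicate 1, -0.09 on L3 replicate 2 and -0.01 on L3 replicate 3. On the lethargus arrays it was 0.03, 0.07 and 0.09. Over all genes above the control range the same value lay between -0.01 and 0.02 on every array. L3 replicate 3 was above the mean of the other L3 arrays in 98 of the 148 receptors (66.2%), with a median difference of 0.12, against 48.1% and -0.01 for all genes above the control range. Lethargus stood 0.19 above those arrays in the receptors and 0.01 in all genes. L3 replicate 3 was nearer to the lethargus mean than to the other L3 arrays in 52.0% of the receptors and in 58.7% of all genes above the control range. None of these gaps was tested.

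**Figure D3:**
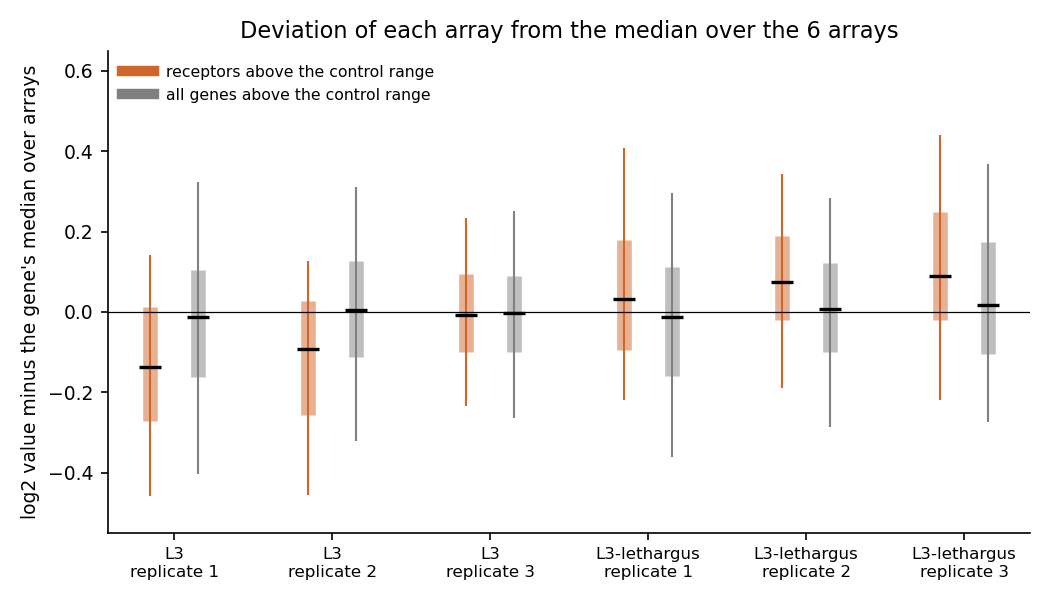
Log2 value minus the gene's own median over the 6 arrays (y axis) on each array (x axis), for the 148 receptors and the 10683 genes above the control range. Black bars are medians, boxes run from the lower to the upper quartile and lines from the 10th to the 90th percentile. The receptors' medians run from -0.14 on L3 replicate 1 to 0.09 on lethargus replicate 3, while those of all genes stay near 0.

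Receptors with an assigned role gave no call. Of 24 such genes measured, 21 lay above the control range, and 0 of these were called. Among all genes above the control range 1.54% were called, and 0 of 21 is near that share. The median log2 difference of the 21 was 0.11, with 14 (66.7%) positive. It was 0.15, with 101 (79.5%) positive, for the remaining receptors, among which all 3 called genes lie. The difference between these groups was not tested. Without overlap between stages, 3 of the 21 were higher in lethargus and 2 (nhr-114 and nhr-57) lower, against 34 and 2 of the 148. Among all genes above the control range 9.62% were higher and 8.13% lower without overlap. The direction of nhr-57 was fixed by the filter. The sign of 11 of the 21 changed when some array was left out. Without L3 replicate 3, nhr-6 turned from 0.26 to -0.01 and nhr-64 from -0.08 to 0.06, while nhr-31 went from 0.31 to 0.46, nhr-80 from 0.21 to 0.32 and nhr-60 from -0.16 to -0.06.

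The receptors of fat metabolism had small differences. Their median was 0.20 over the 7 measured, against 0.15 over the 148 receptors above the control range. nhr-49, a regulator of fatty acid oxidation and desaturation that acts in the response to fasting, had log2 values of 10.43, 9.93 and 10.34 in L3 and 10.36, 10.37 and 10.06 in lethargus. The stages overlapped throughout, with a difference of 0.03 (SE 0.17, adjusted p = 0.991 by limma). nhr-80, which acts with nhr-49 on fatty acid desaturases, had 0.21 (SE 0.14), and nhr-66, a partner of nhr-49, had 0.19 (SE 0.30), which was -0.11 without lethargus replicate 3. nhr-69, a relative of vertebrate HNF4, had 8.69, 8.36 and 8.71 in L3 and 8.77, 8.97 and 8.91 in lethargus, with no overlap and a difference of 0.30 (SE 0.14, adjusted p = 0.568). The remaining members of the group, nhr-13, nhr-64 and nhr-76, had differences of 0.20, -0.08 and 0.20. Of 7 fat receptors measured 0 were called, and of 10 genes that NHR-49 and NHR-80 are known to control 0 were called. Among those 10, fat-7, a stearoyl-CoA desaturase gene, had 0.41 (adjusted p = 0.535) with no overlap, and fat-6 had 0.01. nhr-62, a receptor of the response to dietary restriction, is listed more than once for its probe set and so falls outside the single-symbol rule.

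Of 3 receptors that tune metabolism to the bacterial diet, 0 were called, and 1 was lower in lethargus without overlap. Among all genes above the control range 8.13% were lower without overlap. nhr-114, which protects the germline on some bacterial diets and acts on the methionine cycle, had log2 values of 9.64, 9.42 and 9.43 in L3 and 8.69, 9.11 and 8.59 in lethargus. All lethargus arrays lay below all L3 arrays, with a difference of -0.70 (SE 0.17), and it was not called (adjusted p = 0.144 by limma, and 0.0987 to 0.480 with an array left out). nhr-68 and nhr-10, which together switch on the propionate breakdown shunt, had differences of 0.00 (SE 0.13) and 0.40 (SE 0.29), the latter 0.10 without lethargus replicate 1. All 5 genes of that shunt were between -0.15 and 0.03, with 0 called, acdh-1 among them at -0.04. Of 6 genes of the methionine cycle 0 were called and all had negative differences, with a median of -0.25 that includes -0.43 for the S-adenosylmethionine synthetase gene sams-1 (adjusted p = 0.406).

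Sterol and xenobiotic receptors overlapped between stages. nhr-8, a receptor of cholesterol balance and drug resistance related to the dauer receptor DAF-12, had values of 9.22, 8.96 and 9.20 in L3 and 9.18, 9.14 and 8.92 in lethargus. Its difference was -0.05 (SE 0.14). nhr-48, of the same subfamily, had 0.11 (SE 0.21), and nhr-176, which acts in the breakdown of the drug thiabendazole, had -0.15 (SE 0.19). Of 7 genes for the synthesis and handling of sterol ligands 0 were called. dhs-16, a dehydrogenase gene of dafachronic acid synthesis, had means of 7.11 ± 0.45 in L3 and 6.11 ± 0.21 in lethargus (SD, n = 3 each, adjusted p = 0.135 by limma), and strm-1, a sterol methyltransferase gene, had a difference of -0.92 (SE 0.28, adjusted p = 0.261), both with all lethargus arrays below all L3 arrays. daf-9, the cytochrome P450 gene of the last step, had -0.02 (SE 0.11).

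Receptors of stress and immunity gave no call. nhr-57, a gene induced in hypoxia, had values of 6.25, 5.98 and 5.97 in L3 and 5.52, 5.74 and 5.23 in lethargus. The stages did not overlap, though the lethargus mean lay within the control range, so the direction was fixed by the filter. The difference was -0.58 (SE 0.17, adjusted p = 0.231 by limma). nhr-45, a receptor linked to detoxification, had 8.82, 8.92 and 8.87 in L3 and 9.18, 9.22 and 9.11 in lethargus. Its arrays were tight within each stage and apart between them, with a difference of 0.30 (SE 0.11, adjusted p = 0.376). nhr-86, which senses bacterial metabolites and drives immune genes, had 0.06 (SE 0.13) and nhr-14, which acts in iron uptake, had -0.01 (SE 0.13). Of 5 iron and immune genes tied to these receptors 0 were called, with 0.68 for irg-5 (adjusted p = 0.130) and -0.43 for the iron transporter gene smf-3 (adjusted p = 0.361).

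Receptors of organ development were not called either. nhr-31, needed for growth of the excretory canal, had values of 9.25, 8.94 and 9.56 in L3 and 9.52, 9.63 and 9.52 in lethargus. L3 replicate 3 lay among the lethargus arrays, and the difference was 0.31 (SE 0.17, adjusted p = 0.668 by limma). nhr-6, the worm counterpart of the vertebrate NR4A receptors and needed for the spermatheca, had 0.26 (SE 0.29), nhr-40, a receptor of muscle development, had 0.23 (SE 0.18), and nhr-60 had -0.16 (SE 0.22). nhr-2, a receptor of the early embryo, lay within the control range on every array, as did nhr-111 and nhr-239 of the conserved subfamilies.

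**Figure D4:**
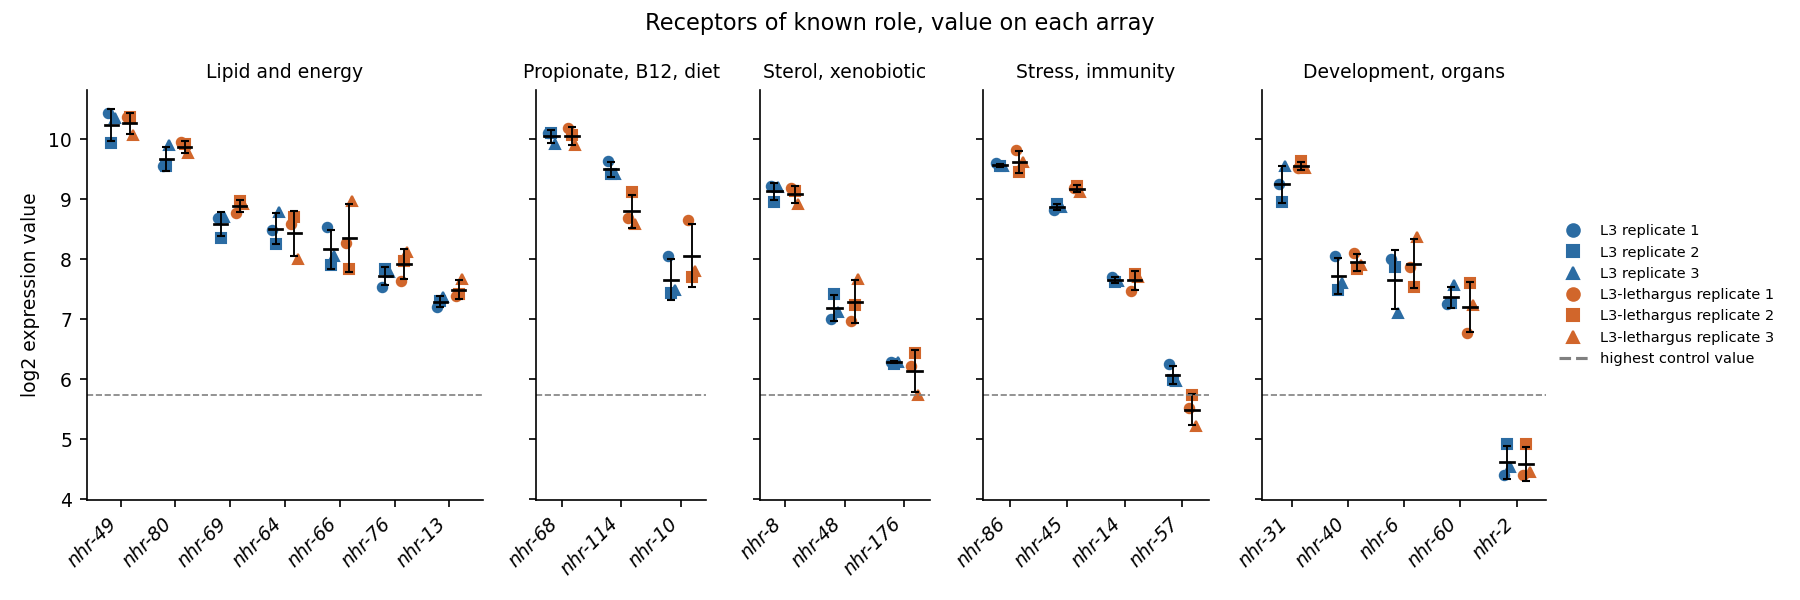
Log2 expression value (y axis) on each array of the receptors with an assigned role, in 5 groups. Points are arrays, bars the mean and SD of 3 arrays, and the dashed line the highest control value of 5.73. Stages overlap in most receptors, and the lethargus arrays lie below those of L3 in nhr-114 and nhr-57 and above them in nhr-13, nhr-69 and nhr-45.

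The machinery that receptors share gave no call. Of 10 cofactor genes, among them the Mediator subunit gene mdt-15, a coactivator of NHR-49, and the histone acetyltransferase gene cbp-1, 0 were called, with a median log2 difference of 0.06. mdt-15 had 0.03 and cbp-1 had 0.07, and the largest difference of this list was -0.41 for din-1, a co-repressor of DAF-12 (adjusted p = 0.340). Over 6 lists of cofactors, ligand genes and targets, 0 of 43 genes were called. Among all genes above the control range 1.54% were called, so 0 of 43 is near that share. Of the 43, ncr-2, hsd-1, lbp-8 and fmo-2 lay within the control range. The 6 molting receptors had a median difference of 0.00 and 0 calls, with -1.05 for nhr-41 and between -0.07 and 0.11 for the other members. Of these, nhr-85 lay within the control range. The 5 receptors with names of other forms (daf-12, sex-1, fax-1, unc-55 and odr-7) had a median of -0.09 and 0 calls. Only 2 of the 5, daf-12 and sex-1, lay above the control range, so this median includes signal near background.

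Many of the receptors lie side by side on the genome. In RefSeq's assembly WBcel235, 137 of 269 protein-coding nhr genes stood next to another nhr gene with no other protein-coding gene between, in 44 runs of up to 9 genes. Of the 248 receptors, 237 were protein-coding there and 11 were pseudogenes. Signal above the control range was found for 73 of the 116 with a neighbour of their own kind and 72 of the 121 without. Positive differences were found in 58 of the 73 and 54 of the 72, with medians of 0.16 and 0.15, so both groups had a majority of positive differences. Probes of near relatives can share signal, and the part of this in the runs was not tested.

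The 4 runs with 5 or more receptors above the control range differed among themselves. In the run nhr-56, nhr-128, nhr-103, nhr-18, nhr-126, nhr-134 and nhr-96, 6 receptors were above the range and all 6 were positive, from 0.08 to 0.34. In the run nhr-123, nhr-98, nhr-203, nhr-202 and nhr-201 1 of 5 was positive, with a range from -0.14 to 0.06. The run nhr-161, nhr-163, nhr-139, nhr-140, nhr-162, nhr-107 and nhr-42 held 6 above the range, 5 of them positive, with nhr-107 at 0.36 (adjusted p = 0.427) as the highest. In the run nhr-99, nhr-55, nhr-130, nhr-212, nhr-211 and nhr-106, 5 of 6 were positive, and in 5 of 6 L3 replicate 3 exceeded the other L3 arrays, by up to 0.87 in nhr-55. The same held for 6 of 6 in the nhr-56 run. It held for 3 of 6 in the nhr-161 run and 3 of 5 in the nhr-123 run. Over the 148 receptors the share was 66.2%. nhr-55 had 8.40, 8.67 and 9.41 in L3 and 8.78 to 9.32 in lethargus. Its highest value was that of L3 replicate 3, the stages overlapped, and the difference of 0.21 was 0.50 without that array.

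**Figure D5:**
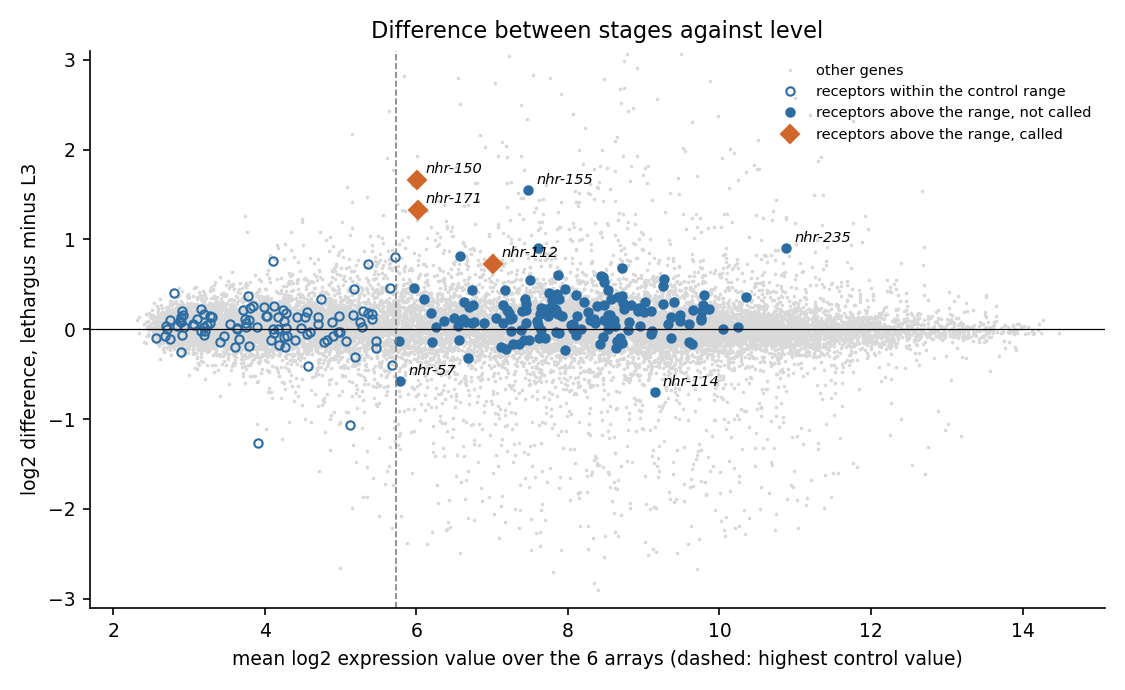
Log2 difference, lethargus minus L3 (y axis), against the mean log2 value over the 6 arrays (x axis) for the 248 receptors and all other genes in grey. The dashed line is the highest control value, and 22 other genes lie beyond the y axis limits. The 3 called receptors sit at the low end of the range above the line, and most receptors above it lie between -0.5 and 0.5.

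The edge of the control range fell among receptors of low signal. Just above it lay nhr-149, nhr-57 and nhr-178, with means over the arrays of 5.77, 5.78 and 5.98, and just below it nhr-7, nhr-277 and nhr-162, with 5.71, 5.68 and 5.66. nhr-7 had 4.95, 5.30 and 5.68 in L3 and 5.96, 6.34 and 6.04 in lethargus, with no overlap. It was not called (difference 0.81, adjusted p = 0.171 by limma), and without L3 replicate 3 its adjusted p was 0.0248. Of the 148 receptors above the range 4 had a stage mean at or below it (nhr-150, nhr-171, nhr-57 and nhr-149), so each passed through the stage in which it was high and had to differ in that direction. Of the 100 others 4 had a stage mean above it.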

How the data were processed

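RNA of whole larvae was amplified (Nugen Ovation) and hybridised to the Affymetrix C. elegans Genome Array, per the labels' protocols. The deposited values are log2 expression values that the authors made with RMA, per the submitters' processing notes; its version and settings were not given in the sources used. The series' design text names a test in R/maanova, which was not run here. Of 22625 probe sets, 77 control probe sets were left out, and the remaining 22548 were fitted with limma 3.58.1 in R 4.3.3, without normalizing again. P-values were adjusted by Benjamini and Hochberg over all of them, and a gene was called at an adjusted p of 0.05 or less. Gene names came from the platform annotation, where 20766 probe sets had 1 symbol, 887 several and 895 none. A gene took its brightest probe set, and 27 Bacillus subtilis probe sets set the control range, 2.42 to 5.73. Gene order and biotype came from RefSeq's WBcel235 table. Calls were tested on simulated data, where 46 of 100 changes of 1 and 96 of 100 changes of 3 on the log2 scale were recovered, with 7 false calls. The simulated noise was independent between probe sets and arrays, so these shares need not hold for the real arrays.

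The members, gene lists and tests were chosen with earlier results of these data known. Genes were named when called, when among the 8 largest differences in a direction without overlap, when among the 5 brightest, when they have an assigned role, or when at the edge of the control range. Neighbours (nhr-102, nhr-172, nhr-234), examples of probe sets that differ (nhr-1, nhr-88, nhr-109) and runs, with nhr-55, were picked after their values were seen. The labels do not say that pools came from separate cultures, so the spread that p-values rest on is that of these pools and may be technical. One further pool a stage was excluded for RNA quality, per the labels. Alternatives covered normalization, the filter on dim probe sets, the variance model, array weights, a replicate block, the choice of probe set and each array left out.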

Additional observations from a re-analysis of the deposited data

How the results depend on the processing

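The share of receptors with a positive difference, 77.7%, stayed between 72.3% and 77.7% over the alternatives. No called receptor changed direction under any of them. For nhr-150 and nhr-171 that direction was fixed by the filter. The filter on dim probe sets, the variance trend and the replicate block leave the difference itself unchanged. The count of receptors called higher, 3, moved more: 5 with array weights (nhr-155 and nhr-53 added), 2 with a variance trend and robust fit or with the mean of a gene's probe sets, and 0 to 8 with an array left out. The 8 came without L3 replicate 3, with nhr-53, nhr-84, nhr-155, nhr-234 and nhr-235 added, 1 (nhr-171) without L3 replicate 2 and 0 without any of the other arrays. Without L3 replicate 3, 573 of all 22548 probe sets were called higher and 563 lower, so the gain in calls was not particular to these receptors. In an alternative chosen after seeing the data, only 1 (nhr-112) was called with every array above its own highest control. The count called lower stayed at 0. Over all probe sets, 170 were called higher and 48 lower; these were 262 and 231 with array weights, 75 to 573 and 0 to 563 with an array left out, and 77 lower with the variance trend. All alternatives for the count of positive differences were also chosen after seeing the data. The cause was not tested.

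With the replicate number as a block, 0 receptors were called higher, and 56 probe sets higher and 3 lower. The sample titles do not say whether equal numbers pair the samples. Same-numbered arrays correlated at 0.26, -0.24 and -0.29 in their deviations from the stage means, and arrays of different number at -0.42 to 0.46. With so few arrays these values cannot settle whether samples were paired. Signal near background limits nhr-150, nhr-171 and the 100 receptors within the control range, for which a difference may not be detectable.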
